A study of Mus musculus with 477 samples.

Results

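The 7 genes described here are the contractile genes of myoepithelial cells and the receptor that drives their contraction: *Acta2*, *Myh11*, *Mylk*, *Tagln*, *Cnn1*, *Myl9* and *Oxtr*. They were chosen by name from the 21004 genes counted in 312 luminal and 165 tumor single cells, and all 7 were present in the count table. The cells came from the mammary glands or mammary tumors of female mice, counted here as 11, after hematopoietic and endothelial cells had been depleted. They fell into 10 groups. Luminal cells (312 cells, 7 mice) were sorted as DAPI-, CD24Hi, CD29Lo and mGFP+, and tumor cells (165 cells, 4 mice) as DAPI- and CD24+, with no CD29 gate stated for them.

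All mice carried MMTV-Cre, a transgene whose mammary tumor virus promoter drives Cre mainly in mammary epithelium, and were of a mixed C57BL/6 and 129/Sv background. The Br genotype was Brca1 fl/fl, the 53 genotype was Trp53 fl/+ and the Br53 genotype was both, as the study's methods state them. A legend of the same study writes Trp53 fl/fl for mammary cells of this age, so the number of floxed Trp53 alleles in the luminal mice is uncertain. A mouse without any floxed allele was not analysed here. Luminal cells were taken at 3 to 4 months of age from virgin mice (vBrL, vBr53L and v53L) and from mice at day 12.5 of pregnancy (pBrL, pBr53L and p53L), and carried the ROSA mT/mG reporter, which turns on membrane GFP where Cre has acted. Tumors BrT1 and BrT2, of about 1 cm, came from Br mice and Br53T1 and Br53T2 from Br53 mice. Each group was taken as 1 mouse except pBrL, whose cell titles carried 2 prefixes (SC5 and SC6) and which was taken as 2 mice (pBrL-1 and pBrL-2). The study's text does not state the number of luminal mice per group.

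Between 30 and 71 cells per mouse gave 40338926 to 115827852 reads assigned to genes, and a cell had 170209 to 3550564 reads. The cells were captured on microfluidic chips. The prefix of a cell title (such as SC6) was taken as its chip, which gives 8 chips. Neither the titles nor the study's text say that the prefix is the chip. By this prefix, tumor Br53T2 and pBrL-2 shared 1 chip, vBr53L and pBr53L shared another, and v53L and p53L shared another still. For the remaining mice the chip and the mouse cannot be told apart. Levels below are CPM (counts scaled to 1000000 reads), either of 1 cell or of the counts summed over the cells of a mouse. The mouse was the replicate in every test. As a check of the sort, 6 luminal markers summed to 7358 to 12881 CPM in the luminal mice and 514 to 5815 CPM in the tumors.

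The mammary epithelium has an inner luminal layer, which makes milk, and an outer basal layer of myoepithelial cells, which squeezes it out. Myoepithelial cells are epithelial cells with a smooth muscle apparatus: oxytocin from the pituitary binds its receptor on them, calcium rises, myosin light chain is phosphorylated and actin and myosin slide. In this tissue these genes therefore serve as markers that separate the basal layer from the luminal one, and many of them are controlled in smooth muscle by serum response factor (SRF) acting through a short element, the CArG box.

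Before the levels, 3 cells that went against their labels have to be named. In the pBrL-1 sort, 1 of 71 cells had reads of 6 of the 7 genes and low luminal keratins. In Br53T2, 2 of 51 cells had *Csn2* (beta-casein, a milk protein) at 12200 and 21997 CPM, where the highest of the other Br53T2 cells had 908 CPM and the median pBrL-2 cell, on the same chip, had 39266 CPM. The first of these casein cells had 1.26 CPM of *Acta2*, and the second had 3129 CPM of *Acta2* together with 9299 CPM of *Krt18*. Capture sites were examined for doublets under a microscope by the study. Values are given with and without these cells where they matter.

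*Acta2*, smooth muscle alpha-actin, forms the thin filaments of the contractile apparatus. Among virgin mice its level summed over cells was 5.79 CPM in vBr53L, 0.33 in vBrL and 0 in v53L. Among pregnant mice it was 248 CPM in pBrL-1, 16.1 in p53L, 10.4 in pBrL-2 and 1.05 in pBr53L. Tumor Br53T2 had 2508 CPM, Br53T1 0.729, BrT1 0.011 and BrT2 0 CPM. Thus 1 tumor of 4 stood far above every other mouse, and the other 3 tumors were within the range of the luminal mice.

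Smooth muscle myosin heavy chain, *Myh11*, makes the thick filaments. It was at 171 CPM in Br53T2 and 45.3 CPM in pBrL-1, and at 0 to 0.785 CPM in the other 9 mice. *Cnn1*, calponin, binds actin and restrains its sliding on myosin. It was at 233 CPM in Br53T2, 55.2 in pBrL-1, 18.5 in pBrL-2 and 5.19 in p53L, and had no read in the other 7 mice. *Tagln*, transgelin or SM22, is an actin-binding protein of the same filaments. It was at 154 CPM in Br53T2, 14.6 in pBrL-1, and 0 to 1.71 in the remaining mice, with no read in 6 of them.

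The remaining contractile genes act on the myosin motor itself, and were the only ones of the 6 above 1 CPM in a tumor other than Br53T2. *Mylk*, the kinase that phosphorylates myosin light chain, was at 213 CPM in Br53T2, 92 in pBrL-1 and 39.5 in BrT2, and at 0 to 3.09 CPM in the other 8 mice. *Myl9*, the light chain it phosphorylates, was at 241 CPM in Br53T2, 85.5 in pBrL-1, 40.8 in Br53T1, 11.5 in BrT2 and 9.01 in BrT1. In the other 6 luminal mice *Myl9* was at 0 to 1.61 CPM. The plot of levels by mouse shows the bright Br53T2 and pBrL-1 columns and the row of *Oxtr*, which does not follow them.

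**Figure D1:**
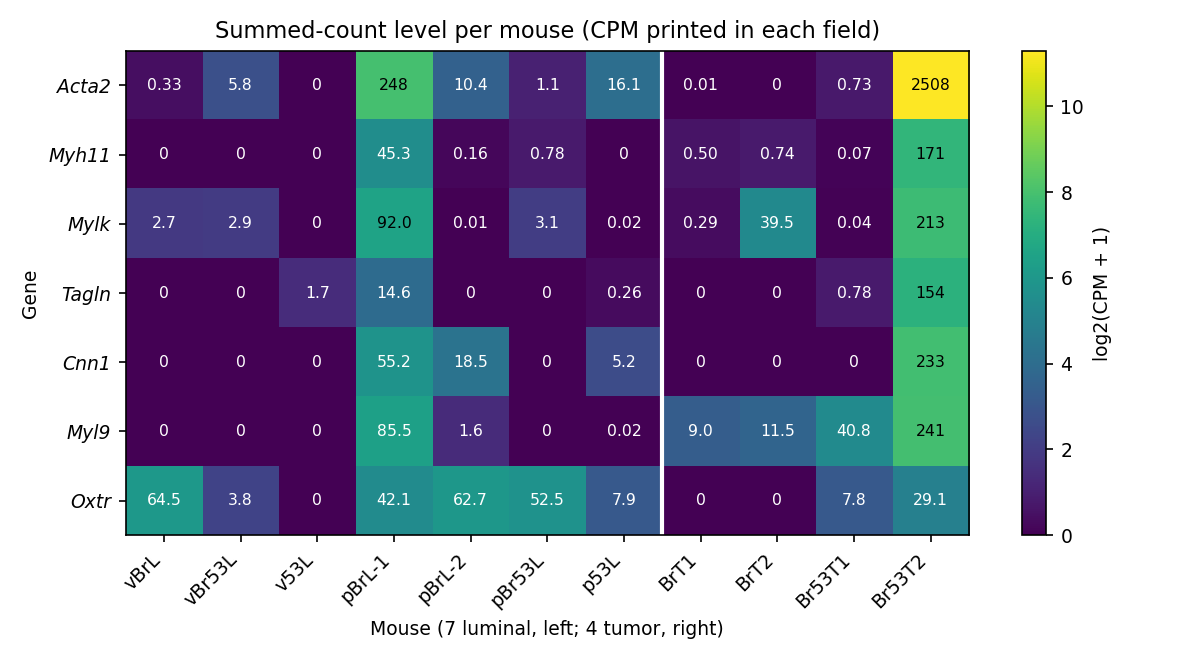
Level of each of the 7 genes in each of the 11 mice, as CPM of the counts summed over cells; the color is log2(CPM + 1), the CPM is printed in each field, and the white line separates 7 luminal mice from 4 tumors. The 6 contractile genes were each highest in Br53T2 and second in pBrL-1, whereas *Oxtr* was highest in vBrL at 64.5 CPM.

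*Oxtr*, the oxytocin receptor, followed another order. Virgin mice had 64.5 CPM (vBrL), 3.81 (vBr53L) and 0 (v53L). Pregnant mice had 62.7 CPM (pBrL-2), 52.5 (pBr53L), 42.1 (pBrL-1) and 7.94 (p53L). Tumor Br53T2 had 29.1 CPM and Br53T1 7.78, and both Br tumors had none. The receptor was thus read in luminal mice whose contractile genes were low, and 4 luminal mice were above the highest tumor. Without the 2 casein cells *Oxtr* in Br53T2 was 23.8 CPM.

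Per kilobase of annotated exon, the levels of the genes in Br53T2 ran from 1142 CPM per kilobase for *Acta2* over 208 for *Myl9*, 85.1 for *Cnn1*, 77.3 for *Tagln*, 22.6 for *Myh11* and 18.9 for *Mylk* to 6.08 for *Oxtr*. The only group with 2 mice shows how wide single mice can lie apart: *Acta2* was 23.9 times higher in pBrL-1 than in pBrL-2, while *Oxtr* was at 42.1 and 62.7 CPM. The order for *Acta2* turned without the 1 pBrL-1 cell named above, with 2.24 CPM in pBrL-1 against 10.4 in pBrL-2. With 1 mouse in each of the other groups, the order of neighboring groups below Br53T2 has no replicate check.

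The genes lie on 5 chromosomes (GENCODE vM21, GRCm38): *Acta2* at chr19:34241090-34255590 (minus strand), *Myh11* at chr16:14194535-14291372 (minus), *Mylk* at chr16:34745210-35002420 (plus), *Tagln* at chr9:45929619-45936058 (minus), *Cnn1* at chr9:22099216-22109630 (plus), *Myl9* at chr2:156775420-156781658 (plus) and *Oxtr* at chr6:112473683-112489943 (minus). Exons of *Mylk* and *Tagln* overlap genes on the opposite strand (*E130310I04Rik* and *Gm21691*; *Gm48529* and *Pcsk7*). The library kit does not mark the strand, so reads there cannot be assigned to one of them. How the authors' counting treated reads that match both *Acta2* and the closely similar actin gene *Actg2* was not given.

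The RefSeq promoter table (GRCm38.p6, 250 bases before to 50 after the start) held 5 of the 7 genes, without *Myh11* and *Tagln*. It was searched on both strands for the CArG box, with up to 1 G or C allowed in its core of A and T. This form was found in 9.98% of all 32851 promoters, and the exact form in 1.63%. The windows of *Acta2* and *Myl9* each held 2 such boxes, of which 1, in *Myl9*, was exact, and the windows of *Mylk*, *Cnn1* and *Oxtr* held none. The 4 boxes are shown, in capitals with 10 bases on either side, since these genes were read in the same cells.
Acta2, chr19:34255438-34255467, minus strand: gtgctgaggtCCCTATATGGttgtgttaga
Acta2, chr19:34255388-34255417, minus strand: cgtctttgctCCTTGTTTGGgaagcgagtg
Myl9, chr2:156775293-156775322, plus strand: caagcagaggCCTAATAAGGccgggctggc
Myl9, chr2:156775355-156775384, plus strand: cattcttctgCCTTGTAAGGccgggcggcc
The *Myl9* boxes begin 161 and 99 bases before the RefSeq start. The *Acta2* boxes begin 84 and 34 bases before it, and both lie within the first exon that GENCODE annotates for a longer *Acta2* transcript (chr19:34255290-34255590). A match is only a match of letters, and no binding was measured.

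The level of a mouse can come from many cells or from 1. To compare cells of unequal depth, each was thinned at random to 100000 reads, and a gene was counted as read in a cell with at least 1 read left. In Br53T2, *Acta2* was read in 32 of 51 cells (62.7%, exact 95% interval 48.1 to 75.9%), *Tagln* in 22, *Mylk* in 20, *Myl9* in 19, *Myh11* in 18, *Cnn1* in 11 (21.6%, 11.3 to 35.3%) and *Oxtr* in 9. In the luminal mice no contractile gene was read in more than 10.5% of cells, the share for *Acta2* in pBrL-2 (4 of 38, 2.94 to 24.8%), which shared the chip with Br53T2. Intervals cover counting error of cells within 1 mouse only.

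**Figure D2:**
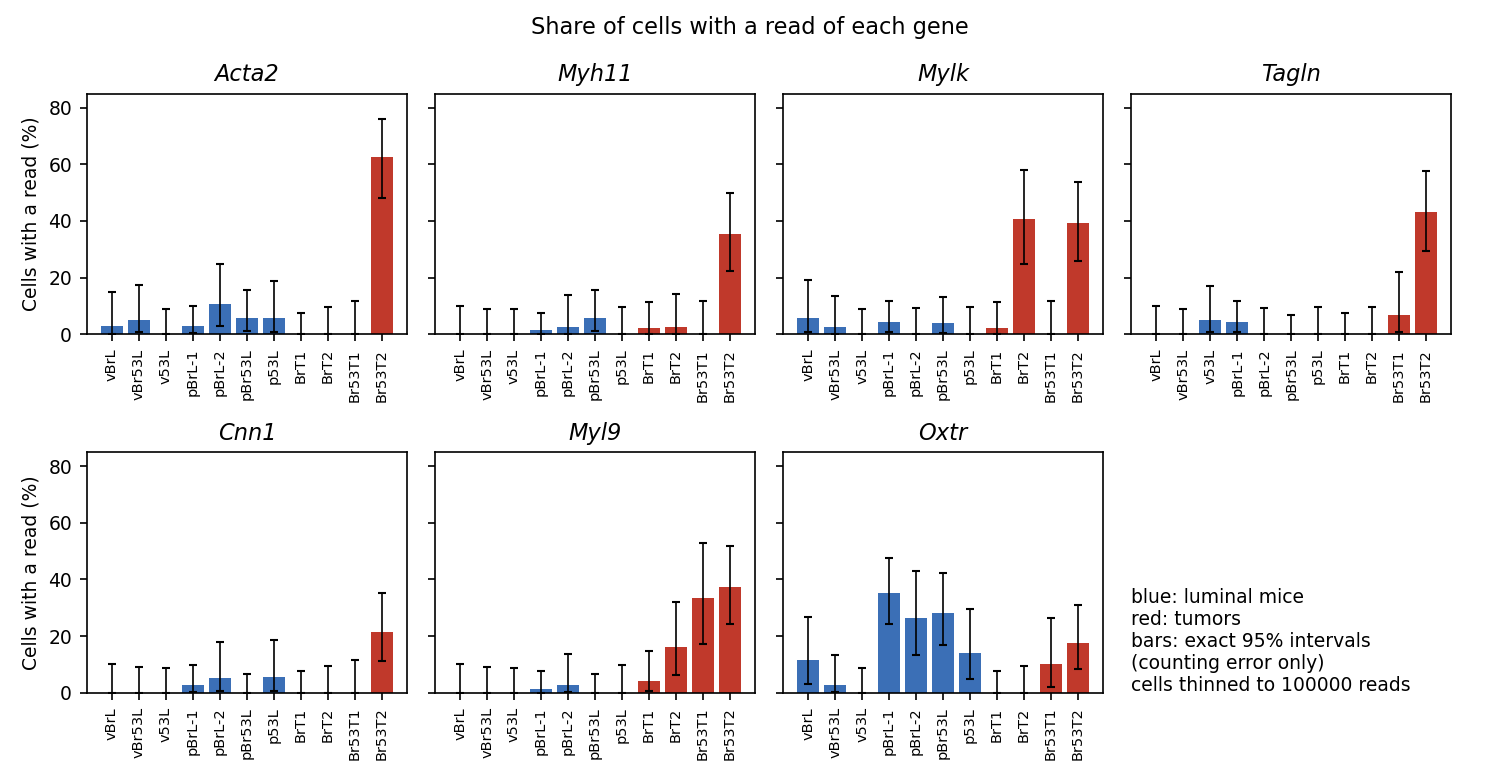
Share of cells with a read of each gene in each mouse after thinning to 100000 reads per cell, with exact 95% intervals; blue bars are luminal mice and red bars tumors. *Acta2* reached 62.7% in Br53T2 against at most 10.5% elsewhere, *Mylk* was read in 40.5% of BrT2 and 39.2% of Br53T2 cells, and *Oxtr* was most widely read in pBrL-1 (35.2%).

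Breadth and level did not go together for every gene. *Mylk* was read in 15 of 37 BrT2 cells (40.5%, 24.8 to 57.9%) and in 20 of 51 Br53T2 cells (39.2%, 25.8 to 53.9%), shares whose intervals overlap widely, although the summed level was 39.5 CPM in the former and 213 in the latter. *Myl9* was read in 10 of 30 Br53T1 cells (33.3%, 17.3 to 52.8%) and in 19 of 51 Br53T2 cells (37.3%, 24.1 to 51.9%). Where these 2 genes were read outside Br53T2, the rest of the apparatus was mostly missing. Of 9 Br53T1 cells with *Myl9* at 10 CPM or more, 1 had *Tagln* at that level and 0 had *Acta2*, *Myh11*, *Mylk* or *Cnn1*. In BrT2, 13 cells had *Mylk* and 6 had *Myl9* at 10 CPM or more, and 3 had both.

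Many Br53T2 cells had only traces of *Acta2*. Without thinning, *Acta2* had a read in 46 of its 51 cells, but in 20 of them at under 10 CPM, while 11 cells had 10 to 1000 CPM and 15 had 1000 CPM or more. The median cell had 11.5 CPM and the highest 46542 CPM. The same trace level occurred in Br53T1, where 16 of 30 cells had an *Acta2* read and none reached 10 CPM.

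Cells with most of the 7 genes were found in Br53T2 and, as 1 cell, in pBrL-1. Of the 51 Br53T2 cells, 17 (33.3%, exact 95% interval 20.8 to 47.9%) had reads of at least 4 of the 7 genes, and 3 had all 7. The other 34 split into 19 cells with 1 to 3 of the genes and 15 with none, and no cell had exactly 4. Counting a gene at 10 CPM or more in place of a thinned read also gave 17 cells, whereas counting any read without thinning gave 32. In BrT1, BrT2 and Br53T1 no cell had more than 2 of the genes, so 0 of 30 to 47 cells had 4. With 3 counts as the limit for a count of 0, this allows shares of up to 6.38 to 10% of cells. The exact 95% upper bounds were 7.55 to 11.6%.

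Those 17 cells held 98.3% of the *Acta2* reads of Br53T2, 97.2% of *Myh11*, 99.2% of *Mylk*, 97.4% of *Tagln*, 99.9% of *Cnn1* and 96.9% of *Myl9*. They were chosen by these reads, so the shares describe how concentrated the program was and are no test. They held 82.1% of the *Oxtr* reads. They were about as complex as the other cells, with a median of 6152 detected genes, against 6672 in the cells with 1 to 3 genes and 6064 in those with none.

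Genes that played no part in choosing the cells differed between these classes, as the plot of single Br53T2 cells shows. *Krt14*, a keratin of the basal layer, had a median of 753 CPM in the 17 cells, 24.7 in the 19 cells with 1 to 3 genes and 2.5 in the 15 with none. *Krt5*, its basal partner, had medians of 173, 1.19 and 0 CPM, and *Trp63*, the transcription factor that maintains basal epithelium, of 119, 6.89 and 1.55 CPM. The luminal keratins went the other way: the median of *Krt18* was 21.5 CPM in the 17 cells, 1629 in the 19 and 2707 in the 15, and that of *Krt8* 72.4, 853 and 1006 CPM. All these cells came from 1 tumor, so the classes are described and not tested.

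**Figure D3:**
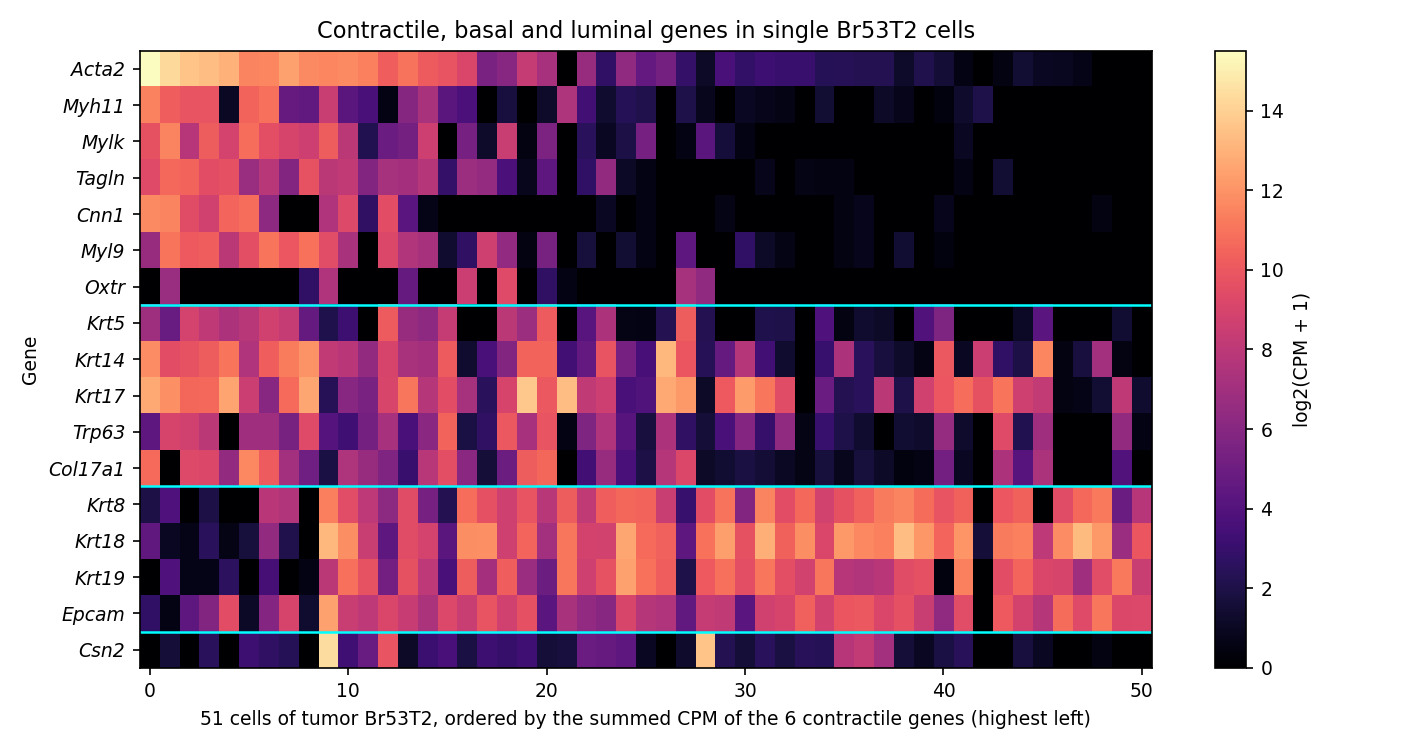
The 51 cells of tumor Br53T2 (columns), ordered by the summed CPM of the 6 contractile genes with the highest at the left, and the 7 genes, 5 basal genes, 4 luminal genes and *Csn2* (rows) as log2(CPM + 1). Contractile genes filled the left side of the picture, where *Krt5* and *Krt14* were read and *Krt8* and *Krt18* were often at or near 0; the 2 cells bright in the last row are the casein cells.

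The 17 cells were not uniform. In 9 of them *Krt18* was under 25 CPM, with *Acta2* at 1232 to 46542 CPM and a median of 8184. *Krt14* in these 9 cells ranged from 186 to 4099 CPM, so they paired contractile genes with a basal keratin. In 7 others *Krt18* was at 100 CPM or more, from 135 to 9299 CPM, with *Acta2* at 64.9 to 3348 CPM and a median of 1124. These 7 cells had luminal keratin and contractile reads in the same library, and 1 of them was a casein cell. The split by *Krt18* was made after the values were seen.

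Within Br53T2 the contractile genes were read in the same cells. Over 51 cells of this 1 tumor, Spearman's rho of the thinned reads lay between 0.61 and 0.88 for the 15 pairs of contractile genes, and between 0.11 and 0.42 for the 6 pairs with *Oxtr*. Of the 9 cells with *Oxtr*, 8 also had *Acta2* and 3 had *Cnn1*. These correlations share the tumor, the chip and many zeros, and are given as a description.

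Pericytes and vascular smooth muscle use the same contractile genes, and fibroblasts can use some of them, so their markers are given for Br53T2. Of 8 pericyte and vascular smooth muscle markers, *Kcnj8* and *Higd1b* had no read, *Abcc9* was at 0.011 CPM, *Rgs5* at 5.09 and *Pdgfrb* at 4.60, and *Notch3*, at 8.26 CPM, was the highest. Summed over the list this was 22.3 to 149 CPM in the tumors and 12.8 to 35.3 CPM in the luminal mice. In the 17 cells the highest *Rgs5* was 0.468 CPM and *Pdgfrb* had no read. *Col1a1* and *Col1a2* each reached 10 CPM in 1 of the 17 cells, not the same one, with 33 and 143 CPM, and *Vim* was at 100 CPM or more in 5 of them, up to 2833 CPM. Among 9 fibroblast markers, *Col1a1* and *Col1a2* were at 0.738 and 1.74 CPM in Br53T2, *Col3a1* and *Lum* had no read, *Dcn* was at 87.5 and *Postn* at 450 CPM. Basal markers summed to 0.248 to 140 CPM in the luminal mice and 20.7 to 3174 CPM in the tumors. Endothelial markers summed to at most 13.7 CPM in a tumor and immune markers to at most 51.8 CPM.

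The program was nearly unread in BrT1, the tumor with the most mesenchymal gene reads. It had 4080 CPM of *Vim* and 4926 CPM of *Fn1*, both genes of mesenchymal cells, and 466 CPM of *Col1a2*, but 1 read of *Acta2* in 47 cells, and none of *Tagln* or *Cnn1*. *Mylk* was at 0.287 CPM and *Myl9* at 9.01 CPM, 70.1% of it from 1 cell. BrT1 was not alone in this. BrT2, with 6200 CPM of *Fn1*, had no read of *Acta2*, *Tagln* or *Cnn1*, and Br53T1 had 0.729 CPM of *Acta2* and no *Cnn1*.

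In the luminal sort, the contractile level of pBrL-1 rested on 1 cell. This cell had 16875 CPM of *Acta2*, 6232 of *Mylk*, 5867 of *Myl9*, 3686 of *Cnn1*, 3104 of *Myh11* and 927 of *Tagln*, and no read of *Oxtr*. It held 99.1% of the *Acta2* reads of the mouse, 99.9% of *Myh11*, 98.7% of *Mylk*, 97.2% of *Cnn1*, 92.6% of *Tagln* and all of *Myl9*. The next cell of that mouse had a summed contractile level of 151 CPM, against 36691 CPM in this one.

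Genes outside the 7 set this cell apart from the other 70 as well. It was the only cell of the mouse with *Krt5*, at 213 CPM, and with *Actg2*, smooth muscle gamma-actin, at 2330 CPM. *Krt14* was at 406 CPM, within the range of the others (0 to 619). *Krt8*, at 30.8 CPM, was below the lowest of the other cells (178), as were *Krt19* (2.96 against 119), *Epcam* (6.52 against 298) and *Cdh1* (0 against 6.40), and *Krt18*, at 111 CPM, was near the lowest (92.2). *Csn2* was at 485 CPM, against a median of 49959. Its 1687627 reads and 4685 detected genes were not unusual for the series.

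**Figure D4:**
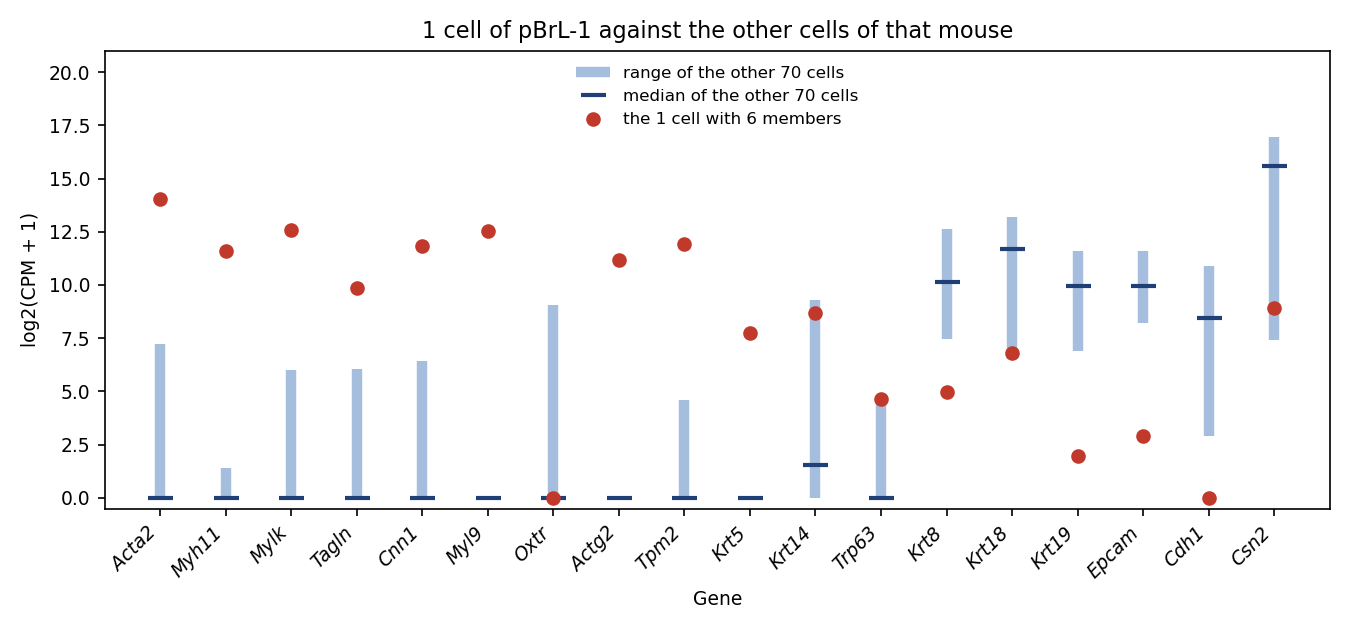
Levels in the 1 pBrL-1 cell with 6 of the 7 genes (red points), with the range (blue bars) and median (dark dashes) of the other 70 cells of that mouse, as log2(CPM + 1). The red point lies far above the bar for the 6 contractile genes, *Actg2* and *Tpm2*, and below it for *Krt8*, *Krt19*, *Epcam* and *Cdh1*.

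Without this cell, *Acta2* in pBrL-1 was 2.24 CPM, *Cnn1* 1.54, *Mylk* 1.21, *Tagln* 1.10 and *Myh11* 0.044 CPM, and *Myl9* had no read. The highest contractile level of any luminal mouse was then 18.5 CPM, that of *Cnn1* in pBrL-2, of which 83.5% came from 1 cell. In other luminal mice, too, 1 cell gave 99.6% of *Acta2* in p53L and 93.1% in vBr53L. *Oxtr* in pBrL-1 was 42.8 CPM without the cell.

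*Oxtr* was spread over more luminal cells than any contractile gene. After thinning it was read in 25 of 71 pBrL-1 cells (35.2%, 24.2 to 47.5%), 10 of 38 pBrL-2 cells (26.3%, 13.4 to 43.1%), 15 of 53 pBr53L cells (28.3%, 16.8 to 42.3%) and 5 of 36 p53L cells (13.9%, 4.67 to 29.5%). In the virgin mice it was read in 4 of 35 vBrL cells (11.4%, 3.20 to 26.7%), 1 of 39 vBr53L cells and 0 of 40 v53L cells, which allows a share of up to 7.5%. The intervals of p53L and vBrL overlap widely, and vBrL had the highest summed level of the 7 mice, with 40.8% of its reads in 1 cell.

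The luminal cells with *Oxtr* were luminal by their keratins. At 10 CPM or more there were 57 such cells among 312, with a median of 79.7 CPM of *Oxtr*, 2798 of *Krt18* and 1055 of *Krt8*, and none had less than 362 CPM of *Krt18*. Their median of *Acta2* was 0 CPM, and 4 of the 57 had any contractile gene at 10 CPM or more. In the tumors 10 of 165 cells had *Oxtr* at that level, and 8 of those 10 also had a contractile gene. Br53T2 held 7 of the 10, and 36 of its 51 cells had a contractile read after thinning. In the luminal mice that share ran from 2 of 40 cells (v53L) to 7 of 38 (pBrL-2). The overlap was not tested against these shares. No *Oxtr* read was found in the 47 cells of BrT1 or the 37 of BrT2.

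The first comparison asked what differs between tumors and the Brca1-deficient luminal cells of the same genotypes, with 4 tumors against 5 luminal mice and edgeR's quasi-likelihood test on summed counts. Of the 7 genes 5 passed the filter on low counts and 0 were called, against 0.609% of 12978 genes (79 genes). *Acta2* had a log2 fold change of 3.39 ± 2.66 (SE; adjusted p = 0.626), *Myl9* 1.96 ± 2.20 (0.748), *Myh11* 2.05 ± 2.42 (0.762), *Mylk* 1.51 ± 2.00 (0.796) and *Oxtr* -2.46 ± 1.76 (0.584). The SE was larger than the change for *Myh11*, *Mylk* and *Myl9*, and the groups overlapped for all 7 genes. The median log2 fold change of the 5 genes was 1.96, against 0.06 over all genes, and it was -4.30 without Br53T2 and 7.15 without the 1 pBrL-1 cell.

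**Figure D5:**
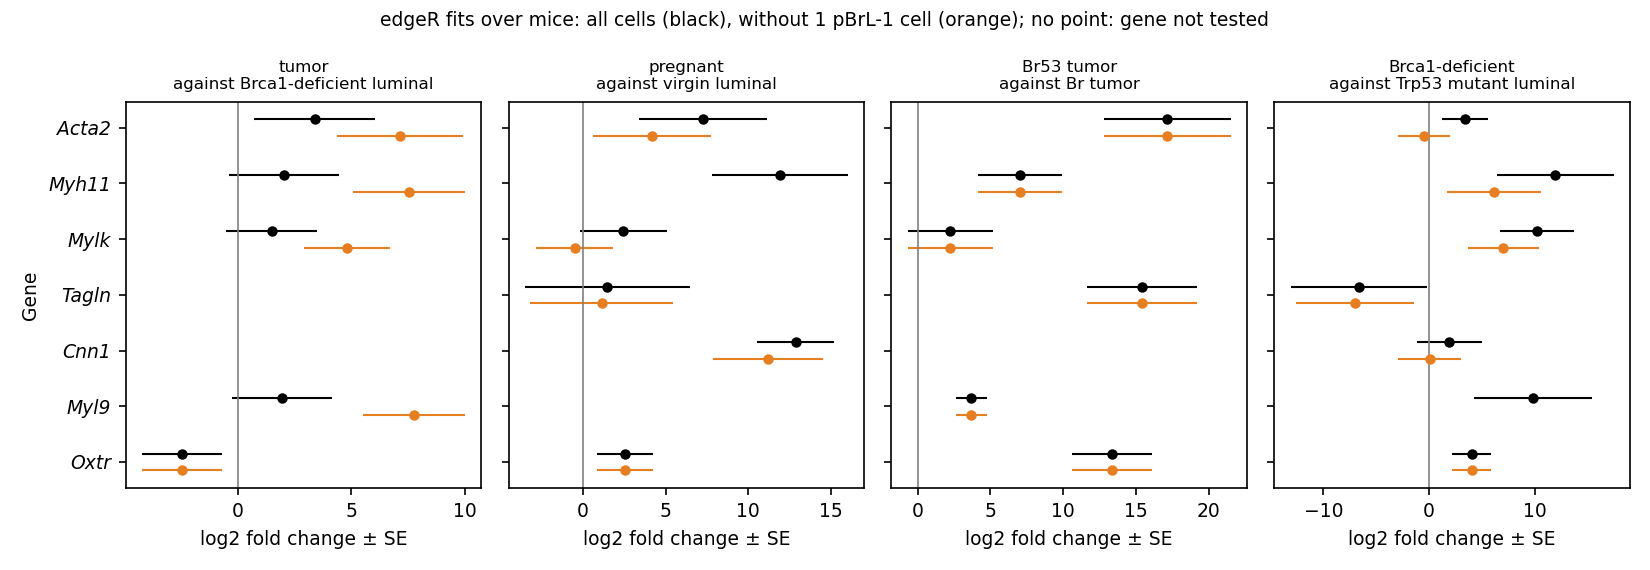
Log2 fold changes with standard errors of the 7 genes in the 4 comparisons over mice (edgeR), with all cells in black and without the 1 pBrL-1 cell in orange; a gene without a point did not pass the filter on low counts. No gene passed the adjusted p of 0.05, and leaving out that 1 cell moved *Acta2* from 3.39 to 7.15 in the tumor comparison and from 3.42 to -0.49 in the comparison of genotypes.

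The comparison moved with that 1 cell. Without it the edgeR log2 fold changes were 7.15 for *Acta2*, 7.54 for *Myh11*, 4.83 for *Mylk* and 7.76 for *Myl9*, still with 0 called (adjusted p = 0.274, 0.197, 0.278 and 0.151). Over all alternatives the adjusted p ranged from 0.233 to 0.957 for *Acta2*, 0.197 to 0.964 for *Myh11*, 0.278 to 0.955 for *Mylk* and 0.151 to 0.992 for *Myl9* (edgeR, DESeq2 and limma). Without Br53T2 in place of the cell, *Acta2* was at -7.93 and *Myh11* at -4.47 in the same fit, so their sign changed with 1 tumor, and *Myl9* was at 0.088. Unadjusted, 0 of the 5 genes had an edgeR p under 0.05 with all cells, where 13.8% of all genes did. Without the cell 4 had, where 1812 of 12964 genes did. The cell was chosen by its reads of these same genes, and no tumor cell was left out. The larger fold changes and lower p without it follow from that choice, and nothing is read from them. DESeq2 called 6.65% of the genes it tested and 0 of the 7, and gave no p for *Acta2*, *Myh11* and *Myl9*, for which it found an outlying count.

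The second comparison asked what pregnancy changes in luminal cells, with 4 pregnant against 3 virgin mice and the genotype as a covariate. Of 6 genes tested by edgeR 0 were called, against 0.0159% of 12615 genes (2 genes). *Oxtr* had a log2 fold change of 2.54 ± 1.70 (adjusted p = 0.705) and *Acta2* of 7.28 ± 3.88 (0.608). With 1 mouse left out, *Oxtr* ran from 1.13 (without p53L or v53L) to 5.86 (without vBrL) and *Acta2* from 2.69 (without vBrL) to 9.15 (without vBr53L). With the chip as a block in place of the genotype, where the change rests on the 2 chips that held a virgin and a pregnant mouse, *Oxtr* was at 5.89 ± 1.62 (edgeR unadjusted p = 0.00395, adjusted p = 0.298) and *Acta2* at 2.87 ± 4.62 (adjusted p = 1.00). That fit called 0 of the 6 genes and 0.333% of all genes. The adjusted p of *Oxtr* ranged from 0.204 to 0.914 over all alternatives. *Cnn1* had no read in any virgin mouse, and its 55.2 CPM in pBrL-1 was at least 743-fold higher than the level that 3 reads would give in the shallowest virgin library, but pBr53L also had no read of it (edgeR adjusted p = 0.240). Without filtering low counts edgeR called 4 genes (*Acta2*, *Myh11*, *Cnn1* and *Myl9*), against 1.99% of all genes under that setting, and DESeq2 called 2 (*Acta2*, adjusted p = 0.00723, and *Myh11*, 0.0220), against 8.21% of genes called by DESeq2. For all 4 of these genes the highest pregnant mouse was pBrL-1, where the 1 cell held 97.2% to all of their reads. Unadjusted, 2 of the 6 genes had an edgeR p under 0.05 (*Myh11* and *Cnn1*), where 9.74% of all genes did. Neither had a read in a virgin mouse, so both passed the filter only through the pregnant mice, and nothing is read from their count. Without that cell *Myh11* no longer passed the filter and *Cnn1* had an adjusted p of 0.444. Over all alternatives the adjusted p ranged from 0.00529 to 1.00 for *Acta2*, 0.0220 to 0.901 for *Myh11* and 0.000699 to 0.610 for *Cnn1* (edgeR, DESeq2 and limma).

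The third comparison asked whether tumors with the floxed Trp53 allele differ from those without it, with 2 mice on each side. Of 6 genes tested by edgeR 0 were called, as of all 13477 genes (0%), and 4 of the 6 (*Acta2*, *Tagln*, *Myl9* and *Oxtr*) had an unadjusted p under 0.05, where 3.98% of all genes did. *Tagln* and *Oxtr* had no read in the Br tumors and *Acta2* had 1, so these 3 genes passed the filter only through the Br53 tumors, and nothing is read from the counts of genes with a low p or called in this comparison. *Acta2*, *Tagln*, *Myl9* and *Oxtr* were higher in both Br53 tumors than in both Br tumors, a pattern that 19% of all genes showed. As *Acta2*, *Tagln* and *Oxtr* were tested only because of the Br53 tumors, nothing is read from this count either. For *Oxtr*, with no read in either Br tumor, the lower Br53 tumor was at least 129-fold above the level of 3 reads in the shallower Br library, and for *Tagln* at least 13-fold. For *Myl9* the log2 fold change was 3.69 ± 1.06 (edgeR adjusted p = 1.00), and 1.90 without Br53T2. DESeq2 called 5 of the 6 genes (all but *Mylk*), where it called 2.34% of all genes, and edgeR without the filter called 6 of 7 (all but *Mylk*), where it called 1.67% of all genes.

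The 2 Br53 tumors also lay far apart. *Acta2* was at 0.729 CPM in Br53T1 and 2508 in Br53T2, and *Cnn1* was at least 4259-fold higher in Br53T2 than 3 reads in Br53T1. Without Br53T2, the log2 fold changes of *Myh11* and *Mylk* were -3.14 and -9.18 (edgeR).

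The last comparison set the 5 Brca1-deficient luminal mice against the 2 with the 53 genotype, with the stage as a covariate. All 7 genes were tested and 0 called by edgeR, as of 13709 genes (0%). Of the 7, 1 gene, *Mylk*, had an unadjusted edgeR p under 0.05, against 5.97% of all genes. *Mylk* had no read in v53L and 1 in p53L, so it passed the filter only through the Brca1-deficient mice. Nothing is therefore read from its low p or from a call of it. *Mylk* was at 0.013 to 92 CPM in the Brca1-deficient mice and at 0 and 0.022 CPM in the others (log2 fold change 10.25 ± 3.49, adjusted p = 0.778). The 92 CPM were those of pBrL-1, where 1 cell held 98.7% of the reads. Without that cell the highest level was 3.09 CPM, in pBr53L, the log2 fold change was 7.03 ± 3.37 and 0 of the 6 genes then tested had an unadjusted p under 0.05 (edgeR; *Mylk* p = 0.0659). *Oxtr* was at 3.81 to 64.5 CPM against 0 and 7.94 CPM (4.03 ± 1.87, adjusted p = 0.778), and with 1 mouse left out its log2 fold change ran from 2.5 (without v53L) to 14.36 (without p53L, edgeR adjusted p = 0.0632). The latter is set against v53L alone, which had no read, so its size depends on the fit. DESeq2 called *Mylk* (adjusted p = 0.000315, range over all alternatives 0.000315 to 0.881), against 3.99% of genes, and gave no p for *Myh11*, *Tagln* and *Myl9*. The groups overlapped for all 7 genes.

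Other genes of the smooth muscle apparatus were read from a list of 16. Of 11 tested in the tumor comparison, edgeR called 1, where it called 0.393% of all genes as higher: *Cald1* (caldesmon, which binds actin and tropomyosin; log2 fold change 3.72 ± 0.56, adjusted p = 0.0213), which was at 574 to 995 CPM in the tumors and 15 to 116 CPM in the 7 luminal mice. The median log2 fold change of the 11 was 2.08, against 0.06 over all genes. The list split in the same way as the 7 genes. *Actg2* and *Tpm2*, the muscle beta-tropomyosin, were at 44.6 and 205 CPM in Br53T2 and 33.9 and 57.1 CPM in pBrL-1, and at most 1.78 CPM elsewhere. In pBrL-1 the 1 contractile cell held all *Actg2* and 99.1% of *Tpm2* reads. *Tpm1* and *Cald1*, which non-muscle cells also use, were read in every mouse, and *Tpm1* was highest in BrT1 (1391 CPM), the tumor with 1 *Acta2* read.

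Cytoplasmic actin and myosin genes were all 11 tested in the tumor comparison, and 0 were called. All 11 had a log2 fold change above 0 (median 0.82, where 52.6% of all genes were above 0). *Cnn2*, the calponin of non-muscle cells, was at 120 to 405 CPM in the tumors and 0.104 to 17.3 CPM in the luminal mice (edgeR log2 fold change 4.54 ± 1.00, adjusted p = 0.0651). *Cnn2* was thus read in all 4 tumors, where *Cnn1* was read in 1.

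Of 4 genes of the SRF pathway, 3 were tested and 0 called, against 0.609% of all genes. *Srf* was at 25.2 to 56.4 CPM in the tumors and 4.13 to 58.1 CPM in the luminal mice, and *Myocd*, the cofactor of SRF in smooth and cardiac muscle, had no read in Br53T2 and was at most 1.70 CPM in a tumor. The cofactors *Mkl1* and *Mkl2* were at 12.2 and 106 CPM in Br53T2. Downstream of *Oxtr*, the receptor couples through Gq to phospholipase C and calcium release. All 16 genes of this list were tested in the tumor comparison and 1 was called as higher in the tumors by edgeR, where 0.393% of all genes were, *Plcb4*, a phospholipase C (adjusted p = 0.0471; 24.7 to 139 CPM in the tumors and 1.63 to 9.47 CPM in the luminal mice). The median of the list was -0.07 on the log2 scale.

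Of the cell type lists in the tumor comparison, 8 of 9 basal, 6 of 6 luminal, 4 of 9 fibroblast, 3 of 8 pericyte, 1 of 5 endothelial and 3 of 6 immune markers were tested by edgeR and 0 called, where 0.609% of all genes were. Of 7 mesenchymal markers tested, 1 was called (0.393% of all genes were called as higher), *Snai1*, a repressor of epithelial genes (log2 fold change 10.36 ± 1.57, adjusted p = 0.0216). In the other 3 comparisons 0 genes of the lists were called by edgeR.

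By rule, the 3 genes most like each of the 7 over the 11 mice were taken from 8723 genes with a mean of 10 CPM or more, by Pearson's r of log2(CPM + 1). *Tpm2* was among the 3 for *Acta2* (r = 0.885), *Myh11* (0.987), *Mylk* (0.809), *Tagln* (0.945) and *Cnn1* (0.844), and *Krt5* for *Acta2*, *Myh11* and *Tagln*. *Myl9* was most like *Moxd1* (0.900) and *Oxtr* most like *Arid1a* (0.931). Among the 7, the 15 pairs of contractile genes had r of 0.62 to 0.95 and the 6 pairs with *Oxtr* 0.07 to 0.50. These are values over 11 mice, 6 of the 7 genes being highest in Br53T2 and next in pBrL-1.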

How the data were processed

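Per the labels, cells were caught one by one on Fluidigm C1 chips, cDNA was made with the SMARTer kit and libraries with Nextera XT, without molecular identifiers. The submitters' processing notes name Trim Galore 0.4.1, STAR 2.5.3a, Subread 1.5.3 and the mm10 build, and the strand setting and annotation were not given in the sources used here. The authors deposited raw read counts per gene and cell. All counts of a mouse were added up, and mice were compared with edgeR 4.0.16 in R 4.3.3 (filterByExpr, TMM scaling, quasi-likelihood test, Benjamini-Hochberg adjustment over all genes tested, called under 0.05), with DESeq2 1.42.0 and limma 3.58.1 (log2 of CPM + 1) as alternatives; the edgeR step was tested on simulated data. CPM used the library totals. A total of 40338926 to 115827852 reads per mouse sets the precision. Shares of cells were taken after thinning to 100000 reads, with exact binomial intervals, which cover counting error only; a count of 0 was given a limit of 3 counts. No cell was left out, and no cell shared its counts with another. All 7 genes are named. Similar genes were the 3 with the highest Pearson's r over mice, without gene models. The genes, lists and alternatives were chosen with earlier results of these data known, and the alternatives without single cells and the 10 CPM count after seeing the values. Mice differ in chip, and pBrL is the only group with 2 mice, so in most contrasts p-values measure the spread between mice of different groups.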

Additional observations from a re-analysis of the deposited data

Results flagged for a closer look

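In 8 of 14 checks of a gene within the tumors or the luminal mice, 1 mouse lay further from the rest than Dixon's 95% value on the scale of log2(CPM + 1). The usual chance rate of about 1 in 20 is no yardstick here, because several mice had few or no reads of these genes. For *Cnn1*, which had no read in the other tumors, any read in Br53T2 would have been flagged. Nothing is therefore read from the count of 8. The genes are also read in the same cells, so the checks are not separate. Among the 4 tumors, Br53T2 stood apart for *Acta2* (2508 CPM), *Myh11* (171 CPM), *Tagln* (154 CPM) and *Cnn1* (233 CPM). The 17 cells with at least 4 of the 7 genes held 97.2% to 99.9% of these reads, unevenly: *Cnn1* was at 10 CPM or more in 11 of them, and the single highest cell held 22.4% to 36% of the reads of a gene. Among the 7 luminal mice, pBrL-1 stood apart for *Myh11* (45.3 CPM), *Mylk* (92 CPM), *Tagln* (14.6 CPM) and *Myl9* (85.5 CPM), of which 92.6% to all of the reads came from 1 cell.

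The change with pregnancy went in opposite directions between genotypes for 2 genes, and this difference was not tested. *Acta2* was lower by 1.73 in the pregnant than in the virgin Br53 mouse (log2(CPM + 1) difference -1.73), and higher in the pregnant mice of the Br genotype (3.10 and 7.55) and the 53 genotype (4.09). These differences rested on few cells: 1 cell held 99.1% of the *Acta2* reads of pBrL-1, 99.6% of those of p53L and 93.1% of those of vBr53L. Without the pBrL-1 cell that mouse differed from vBrL by 1.28 in place of 7.55. With the cell that had most *Acta2* reads left out of every luminal mouse, a setting chosen after seeing the data, the difference was -0.097 in the Br53 genotype, 1.65 and 2.81 in the Br genotype and 0.094 in the 53 genotype. *Oxtr* was lower in both pregnant Br mice than in vBrL (-0.041 and -0.60), and higher in the pregnant Br53 (3.47) and 53 (3.16) mice. In vBrL, 40.8% of the *Oxtr* reads came from 1 cell. With the cell that had most *Oxtr* reads left out of every luminal mouse, the differences were -0.020 and -0.24 in the Br, 5.02 in the Br53 and 1.59 in the 53 genotype.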

How the results depend on the processing

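No gene of the 7 was called in any of the 4 comparisons with edgeR under another scaling, another set of cells or with any 1 mouse left out. Without the filter on low counts edgeR called 4 genes for pregnancy (1.99% of all genes) and 6 for Br53 against Br tumors (1.67%), and DESeq2 called 2 (8.21%), 5 (2.34%) and, for Brca1-deficient against 53 luminal mice, 1 (3.99%). Several of these genes had at most 1 read in all mice of the lower arm, so nothing is read from these counts. The number of Br53T2 cells with at least 4 genes was 17, and 32 without thinning. The sign turned for *Acta2* in the tumor comparison with mean CPM in limma (-0.37) and in the luminal genotypes without the pBrL-1 cell (-0.49), for *Mylk* in pregnancy without that cell (-0.50), and for *Tagln* in pregnancy with the chip as a block (-2.16) and in the luminal genotypes with no covariate (1.44). With 1 mouse left out, log2 fold changes in the tumor comparison ran from -7.93 to 6.99 for *Acta2*, -4.47 to 7.26 for *Myh11* and -0.58 to 4.68 for *Mylk*, the lowest each without Br53T2. They ran from -0.92 (without pBrL-1) to 4.10 for *Mylk* and -2.15 (without vBrL) to 10.69 for *Tagln* in pregnancy. For Br53 against Br tumors they ran from -3.14 to 8.0 for *Myh11* and -9.18 to 8.53 for *Mylk*, the lowest without Br53T2, and in the luminal genotypes from -10.16 to 3.99 (without v53L) for *Tagln*. The cause of these changes was not tested. Where the remaining arm held 1 mouse, that mouse is assumed to vary like the others. By replicate number no paired analysis was possible because pBrL is the only group with a second number. Virgin and pregnant mice of 2 genotypes shared a chip, and with the chip as a block in place of the genotype, which each chip fixes among the luminal mice, edgeR called 42 of 12615 genes in place of 2 (17 with neither), and 0 of the 7.

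The same 6 genes were highest in Br53T2 with TMM scaling, with mean CPM over cells, and without the doubtful cells; by share of cells 5 were.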
